A study of Mus musculus with 10 samples.

Results

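Serine, one-carbon and amino acid supply was followed through 33 genes in KPC orthotopic pancreatic tumors from mice that drank 30% dextrose water (D30) or regular water (CTRL). The genes were chosen by name and grouped by role, as 6 genes of serine and glycine synthesis, 7 of the folate cycle, 4 of the methionine cycle and its salvage branch, 8 enzymes of asparagine, proline, arginine and branched-chain amino acids, and 8 amino acid transporters. All 33 were found among the 55359 genes of the table, and 32 passed the filter on low values together with 24560 genes in all. The exception, Slc6a14, a transporter of neutral and cationic amino acids, had 3 reads in 1 CTRL tumor and 0 in the other 9, a level that a floor of 3 reads cannot tell from none.

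The tumors grew in the pancreas of immunocompetent C57BL/6 mice (C57BL/6 J in the study's methods), injected at 10 weeks of age with luciferase-expressing KPC K8484 cells, which derive from a pancreatic cancer of a Pdx1-Cre mouse model. The 5 CTRL mice were normoglycemic on regular water, and the 5 D30 mice were made hyperglycemic by dextrose in their water, for 14 days by the study's text. All tumors came from this 1 line, and the sample titles call them PDX although their source is named as KPC K8484. Tumor columns carried the letter N (CTRL: N1, N2, N4, N5, N6) or T (D30: T1, T2, T4, T5, T7), and T was read as D30 because it was the only other group. The labels call the tumors of a group independent biological replicates.

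Serine is made from a glycolytic intermediate by Phgdh, Psat1 and Psph, and serine hydroxymethyltransferases split it into glycine and a one-carbon unit. That unit is carried by folate through a cytosolic and a mitochondrial arm, and feeds thymidylate, purine and, through the methionine cycle, methyl group synthesis. Many of these genes, together with asparagine synthetase and several amino acid transporters, are known targets of the transcription factor ATF4, which is made when amino acids run short or the endoplasmic reticulum is stressed. Pancreatic tumors are known for a poor blood supply and for drawing amino acids from several sources.

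Total reads recovered per tumor ranged from 29915331 to 42122304 in CTRL and from 29192261 to 37126175 in D30. Of the D30 tumors, T4 and T5 stood apart. T4 alone held reads of 4 Y-linked genes (841 reads against 0 in each of the other 9 tumors), although the methods state that male and female hosts were used in equal number, and T5 had the fewest genes with a read (20482, against 24200 to 25912 in CTRL). Levels are given as normalized counts, the deposited values, in which the reads of a tumor are divided by its size factor. For many members a value without T4, T5 or both is given too, though not every shift is listed.

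Of the epithelial tumor markers, Krt7, Krt8, Krt18, Krt19, Cdh1 and Msln were abundant in every tumor (lowest value 15241), while Epcam, Sox9 and Cldn7 were low (0 to 354). The 10 epithelial markers summed to 248980 to 372039 normalized counts in CTRL and 369782 to 573152 in D30. That D30 to CTRL ratio of mean sums, 1.62, had an adjusted p of 0.0635 over 12 marker lists (two-sided exact permutation test). Of the 10 genes, 8 had positive fold changes, but tested gene by gene 0 passed as higher and 1 as lower. Cldn7 ran from 6.2 to 45.2 in CTRL and from 0 to 4.58 in D30. Summed acinar markers reached 37765 in N2 and 82381 in N6, but 366 to 4091 in the other 3 CTRL tumors and 228 to 7941 in D30. Endothelial markers summed to 13129 to 20426 in CTRL and 8158 to 11591 in D30, a ratio of 0.549 (exact permutation adjusted p = 0.0476), but Cdh5 made up 67.5% of that sum in CTRL, and the other 9 genes overlapped between groups with a ratio of 0.918. In the hepatocyte list, with a ratio of 0.34 at the same adjusted p, Ttr made up 92.7% of the CTRL sum and Alb did not exceed 59 normalized counts. Without Ttr, the other 8 hepatocyte genes summed to 83.9 to 488 in CTRL and 32.9 to 80.2 in D30, without overlap and at a ratio of 0.358. With an exact p of 0.00794 at the lowest, no list could pass alone over 12 lists, so not passing does not show equal levels. The other lists did not pass this test, with ratios of 0.638 for fibroblasts, 0.726 for macrophages, 3.19 for neutrophils, 0.945 for T cells, 1.32 for B cells, 0.774 for adipocytes, 0.953 for proliferation, 0.0866 for islets and 0.084 for acinar cells. Their part in the member results was not tested, and in bulk tumors fewer cells of a type and less RNA per cell cannot be told apart.

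For the 3 members whose groups did not overlap, the 150 bases just before the RefSeq start site (build GRCm38.p6, minus strand, written 5′ to 3′ along the gene) are shown because their promoters belong to the genes the results turn on. Capitals mark TGATGNAA, the core of the element bound by ATF4 with its C/EBP partner, where N is any base and both strands were searched.
Asns, chr6:7693210-7693359: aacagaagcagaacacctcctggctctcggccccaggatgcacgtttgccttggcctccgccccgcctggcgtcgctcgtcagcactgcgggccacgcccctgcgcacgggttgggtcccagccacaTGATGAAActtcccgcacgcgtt
Mthfd2, chr6:83317605-83317754: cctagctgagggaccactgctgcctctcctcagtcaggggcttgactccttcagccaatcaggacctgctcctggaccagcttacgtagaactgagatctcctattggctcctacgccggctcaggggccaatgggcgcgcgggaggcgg
Shmt1, chr11:60811266-60811415: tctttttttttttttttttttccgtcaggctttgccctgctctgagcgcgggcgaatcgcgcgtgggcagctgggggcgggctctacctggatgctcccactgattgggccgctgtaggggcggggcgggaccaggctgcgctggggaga

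The Asns promoter held the motif as TGATGAAA, with its first base 23 bases before the start, while the Mthfd2 and Shmt1 windows did not hold these letters. Over the full windows of 250 bases before to 50 after the start, the motif occurred in 3.97% of 32851 RefSeq promoters and in 5 of 38 windows of the 28 members with a RefSeq entry. Overlapping windows of Slc7a7 shared a match. Counted by gene, the motif occurred in 4.51% of 27025 genes and in 4 of the 28 members. Besides Asns, the members with a match were Pycr1, Slc1a4 and Slc7a7. A match is a description of letters, not a sign of binding.

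Of the 32 tested members, Asns and Mthfd2 rose in D30 tumors at an adjusted p under 0.05 and none fell. The adjusted p is limma's moderated test with Benjamini-Hochberg adjustment over all 24560 genes, of which 2.76% were called in either direction, 1.40% as higher and 1.36% as lower. The members' share called was 6.25% and rests on these 2 genes. In log2 fold change, 19 members were positive and 13 negative, with a median of 0.09 and a range from -1.01 to 1.20, while the median of all tested genes was -0.06. An unadjusted p under 0.05 was reached by 7 members, against 4258 of all genes. On the recovered reads, edgeR called 2 members beside 4.13% of its genes, and DESeq2 called 3 beside 8.17%. Summed epithelial markers, at the ratio of 1.62 given above, did not pass their test, and their part in these calls was not tested.

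**Figure D1:**
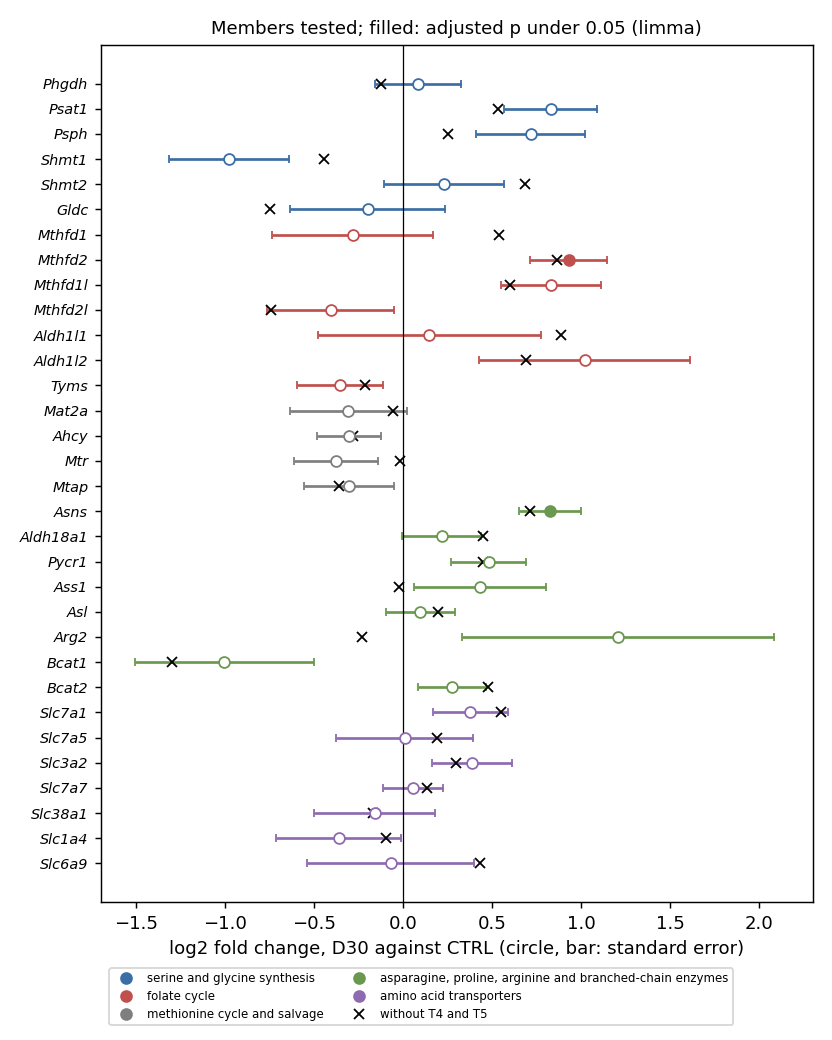
Log2 fold change in D30 against CTRL tumors (x axis, circles with standard errors, n = 5 per group) for the 32 tested members (y axis), colored by role, with filled circles for an adjusted p under 0.05. Only Asns (0.83) and Mthfd2 (0.93) are filled, and crosses, which show the fold change without T4 and T5, lie far from the circle for Mthfd1, Aldh1l1 and Arg2.

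Asns, at chr6:7675169-7693254 (GENCODE M21, GRCm38), encodes asparagine synthetase, which makes asparagine from aspartate and glutamine. Its normalized counts were 2173, 1736, 2629, 2026 and 2146 in N1, N2, N4, N5 and N6, and 3692, 3223, 3719.7, 4827 and 3534 in T1, T2, T4, T5 and T7. Every D30 tumor lay above every CTRL tumor, with the highest CTRL value in N4 and the lowest D30 value in T2. The means were 2142 ± 323 in CTRL and 3799 ± 608 in D30 (SD, n = 5 each), a log2 fold change of 0.83 (SE 0.18, adjusted p = 0.0243), or 1.77-fold. Omission of any single tumor gave log2 fold changes of 0.74 to 0.90, and the adjusted p, from 0.0101 to 0.0967, was under 0.05 in 5 of 10 fits. The call was lost without N1, N2, N5, N6 or T7 (adjusted p = 0.0515, 0.0967, 0.0746, 0.0743 and 0.0521). Without N2 and N6, the CTRL tumors with the most acinar RNA, the log2 fold change was 0.73 with an adjusted p of 0.321, in a fit that called 66 genes of all tested. Asns was 1736 in N2 and 2146 in N6, against 2026 to 2629 in the other 3 CTRL tumors.

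Mthfd2, at chr6:83305691-83325908, encodes the mitochondrial enzyme that oxidizes methylene-tetrahydrofolate. Listed in the same tumor order, its normalized counts were 993, 895, 1015, 599 and 765 in CTRL and 1815, 1235, 1335, 2189.8 and 1584 in D30. Again no D30 tumor fell below a CTRL tumor, and T5 was the highest. Means were 853 ± 173 and 1632 ± 385, a log2 fold change of 0.93 (SE 0.22, adjusted p = 0.038). Leaving out 1 tumor gave log2 fold changes from 0.81 to 1.02, with the adjusted p under 0.05 in 2 of 10 fits, those without T2 or T4 (0.0459 and 0.0131), and from 0.0552 to 0.113 in the other 8. Without N2 and N6 it was 0.92 with an adjusted p of 0.32.

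Both calls held with TMM scaling (limma adjusted p = 0.0244 for Asns and 0.0397 for Mthfd2) but not with library-size scaling. There limma called 0 members, in a fit that called 864 of 24617 genes. In that fit 10 members had an unadjusted p under 0.05, and the count over all genes at that level was not taken. When reads were scaled by library size, the median of all genes moved to -0.27, and Asns gave 0.60 (adjusted p = 0.0762) and Mthfd2 0.71 (adjusted p = 0.107). Relative to the median of all genes, Asns stood at 0.89 in the deposited scaling and 0.87 by library size, and Mthfd2 at 0.99 and 0.98. On the recovered reads, edgeR and DESeq2 called both genes (edgeR adjusted p = 0.0193 for Asns and 0.0306 for Mthfd2).

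**Figure D2:**
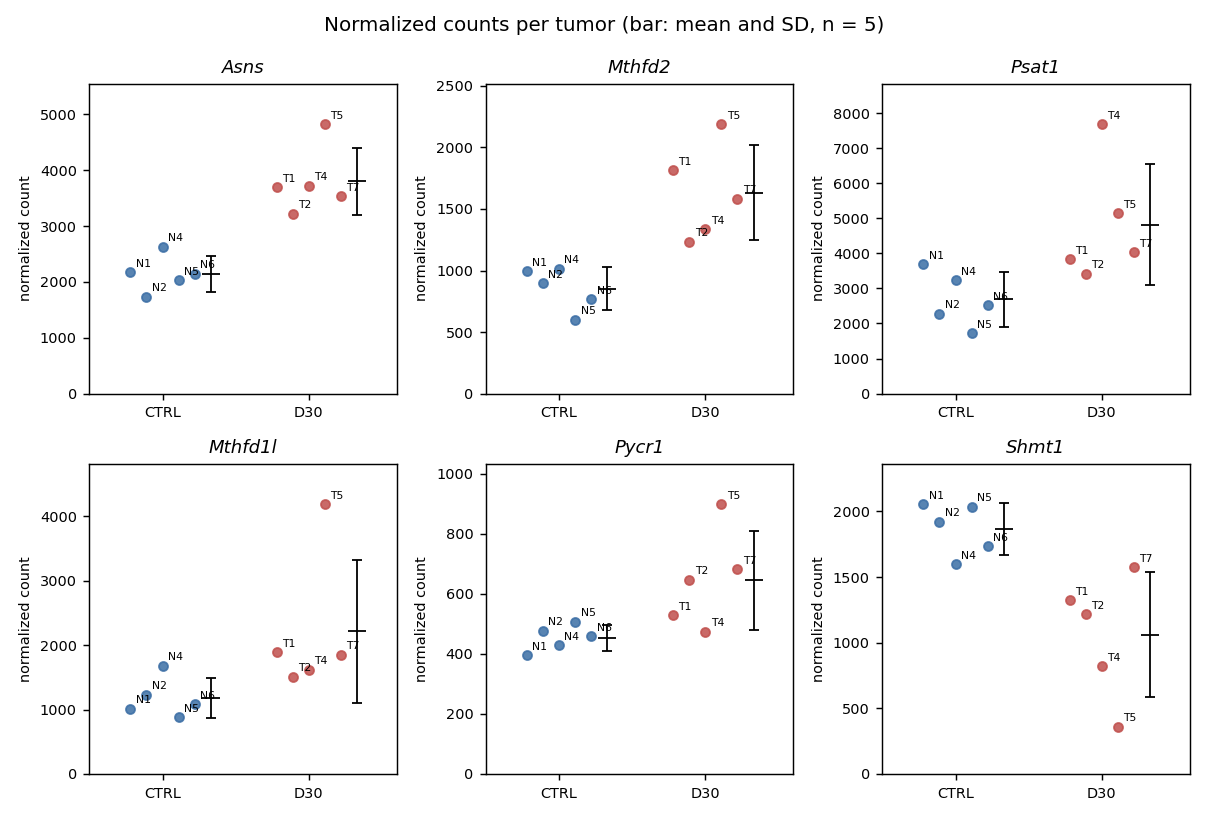
Normalized counts (y axis) of Asns, Mthfd2, Psat1, Mthfd1l, Pycr1 and Shmt1 by group (x axis). Points are labelled by tumor column, with bars for the mean and SD of 5 tumors. Methionine cycle members and transporters are not drawn. D30 points of Asns and Mthfd2 lie above all CTRL points, those of Shmt1 lie below, and the other members drawn overlap between groups.

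In serine and glycine synthesis, none of 6 members passed the test (3 at an unadjusted p under 0.05, and 0 called by edgeR or DESeq2), and the median log2 fold change was 0.15. Phgdh, which takes the first step from glycolysis, was the most abundant member per kilobase of exon, at 3454 normalized counts per kilobase in CTRL and 3652 in D30. Its log2 fold change was 0.08 (SE 0.24, adjusted p = 0.901), and it turned to -0.14 with library-size scaling and -0.05 without T4.

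Psat1, the aminotransferase of the next step, had 3683, 2284, 3234, 1725 and 2517 normalized counts in the CTRL tumors and 3827, 3418, 7687, 5150.0 and 4029 in the D30 tumors. T4 and T5 were the highest, and the ranges met because N1 exceeded T2. The log2 fold change was 0.83 (SE 0.26, adjusted p = 0.119), and 0.53 without T4 and T5 (adjusted p = 0.145). Psph, the phosphatase of the last step, ranged from 398 to 518 in CTRL and 451 to 1671 in D30, with T4 the highest (log2 fold change 0.71, adjusted p = 0.251, and 0.43 without T4). Its locus overlaps Cct6a on the opposite strand.

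Shmt1 and Shmt2, the cytosolic and mitochondrial serine hydroxymethyltransferases, had fold changes of opposite sign. Shmt1, at chr11:60788104-60811718, had 2055, 1921, 1597, 2036 and 1735 normalized counts in the CTRL tumors and 1322, 1216, 821, 358 and 1577 in the D30 tumors. Every D30 tumor was below every CTRL tumor, narrowly so for T7 and N4, and T5 was the lowest. The means, 1869 ± 198 and 1059 ± 477 (SD, n = 5 each), gave a log2 fold change of -0.98 (SE 0.34) that did not pass the test (adjusted p = 0.152), and without T5 it was -0.63. Groups did not overlap with D30 lower in 3.32% of all tested genes, and with D30 higher in 2.87%, so that 1 and 2 of 32 members stood beside these shares.

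Shmt2 had 2341, 3236, 4116, 2737 and 3249.7 normalized counts in CTRL and 5446, 3971, 1379, 3688 and 5574 in D30. T4 was the lowest of all tumors, whereas T1 and T7 were the highest. Its log2 fold change was 0.23 (adjusted p = 0.777), and 0.68 without T4 and T5 (adjusted p = 0.0379). Gldc, the decarboxylase of the glycine cleavage system, ranged from 127 to 255 in CTRL and 72.2 to 524 in D30, with the highest value in T4 (log2 fold change -0.20, adjusted p = 0.859, and -0.61 without T4).

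Among the 7 folate cycle members Mthfd2 alone passed the test, and the median log2 fold change was 0.15. Mthfd1l, the mitochondrial formyl-tetrahydrofolate synthetase, had 1013, 1232, 1681, 884 and 1079.8 normalized counts in CTRL and 1892, 1512, 1620.4, 4188 and 1850.3 in D30. N4 exceeded T2 and T4, so the groups overlapped, and T5 held more than any other tumor. The log2 fold change was 0.83 (SE 0.28, adjusted p = 0.145), and 0.57 without T5 (adjusted p = 0.166). Mthfd1, the cytosolic enzyme that joins several of these steps, ranged from 1676 to 2609 in CTRL and from 552 to 4236 in D30, where T4 and T5 were below and T1, T2 and T7 above all CTRL tumors. Its log2 fold change was -0.29 (adjusted p = 0.796) with all tumors and 0.54 without T4 and T5 (adjusted p = 0.0843).

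Mthfd2l, a second mitochondrial enzyme of the Mthfd2 step, ranged from 863 to 1502 in CTRL, and from 601 to 758 in T1, T2, T5 and T7, but reached 2631 in T4. With all tumors the log2 fold change was -0.41 (adjusted p = 0.609), and without T4 it was -0.80 (adjusted p = 0.0181). Aldh1l1, which returns formyl-tetrahydrofolate to tetrahydrofolate in the cytosol, showed the same dependence with the other sign. It ranged from 863 to 1594 in CTRL and was 2868, 1594, 164, 2215 and 2255 in D30, with T4 the lowest of all tumors. The log2 fold change of 0.15 (adjusted p = 0.934) became 0.89 without T4 (adjusted p = 0.0298). Aldh1l2, its mitochondrial counterpart, was low per kilobase (10.1 in CTRL and 30.7 in D30) and reached 758 normalized counts in T5 against 42.1 to 109.6 in CTRL. Its log2 fold change was 1.02 (adjusted p = 0.407), with 0.42 without T5 and 1.37 without T4. Tyms, which makes thymidylate, had means of 1457 ± 368 and 1145 ± 283 (log2 fold change -0.36, adjusted p = 0.486, and -0.17 without T5), beside summed proliferation markers at a D30 to CTRL ratio of 0.953.

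**Figure D3:**
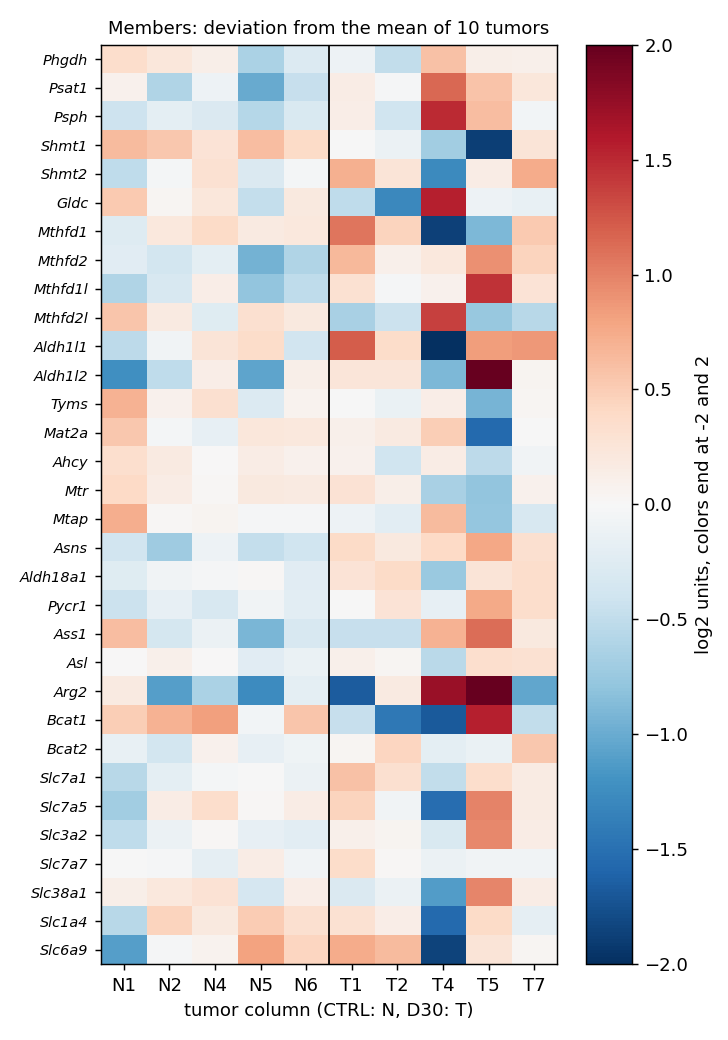
Deviation of each tested member (rows) from its mean over 10 tumors, in log2 units by color (scale ends at -2 and 2), for each tumor column, with CTRL left of the line. T4 and T5 hold the strongest colors, T5 being highest in 12 and lowest in 7 of 32 members and T4 highest in 5 and lowest in 10.

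T4 and T5 deviated most over the members as a whole. The median absolute deviation from the mean over 10 tumors was 0.69 log2 units in T4 and 0.77 in T5, against 0.50 in N1 and 0.17 to 0.31 in the other 7 tumors. Without T4 and T5, 8 of 32 members (25%) were called, beside 9.97% of all genes tested in that fit. T4 and T5 deviated most in these same members, so these shares cannot show an excess among the members. Without T4 alone 4 members were called beside 6.43% of all genes, and without T5 alone 2 beside 3.54%. The 8 without both were Asns, Mthfd2, Shmt2, Aldh1l1, Aldh18a1 and Slc7a1 as higher and Mthfd2l and Bcat1 as lower.

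Some pairs of members do related work, mostly in different compartments, and the ratio of their levels within a tumor does not depend on the scaling between tumors. The pairs were picked after their values were seen, so the ratios, of normalized counts per kilobase of exon, are given with no test. Mitochondrial Shmt2 over cytosolic Shmt1 was 1.42 to 3.22 in CTRL (median 2.10) and 2.10 to 12.9 in D30 (median 4.42). D30 exceeded the CTRL maximum in 4 of 5 tumors, the exception being T4. Mthfd2 over Mthfd2l, both mitochondrial, was 0.892 to 2.24 in CTRL (median 1.26) and 0.967 to 6.94 in D30 (median 4.33), with T4 again the exception. For Mthfd1l over Mthfd1 and Aldh1l2 over Aldh1l1, T4 and T5 were the D30 tumors above the CTRL maximum, and T1, T2 and T7 lay within the CTRL range.

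**Figure D4:**
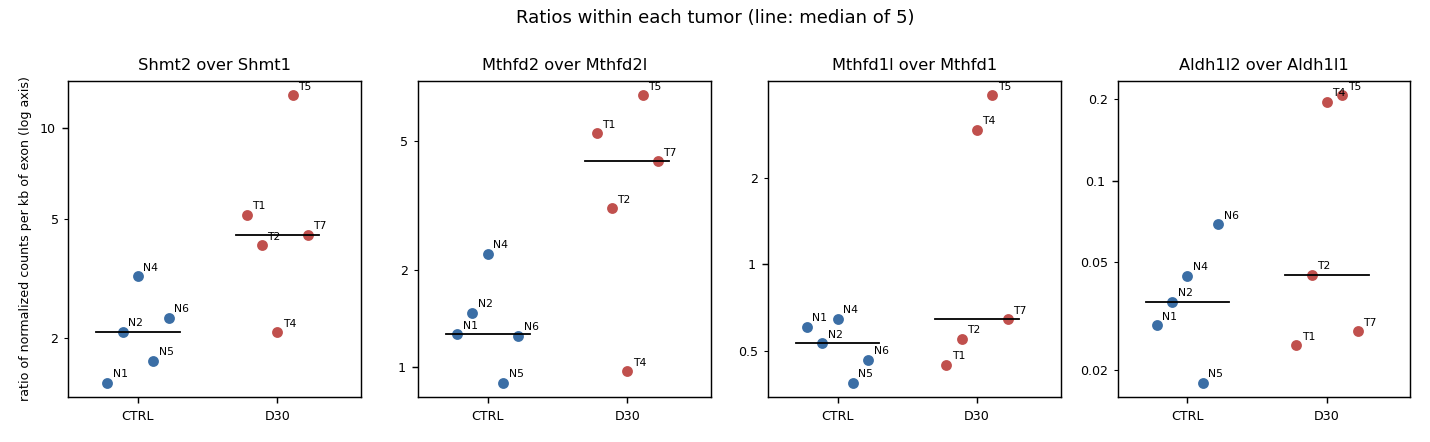
Ratio of normalized counts per kilobase of exon (log y axis) between paired members within each tumor, by group (x axis), with a line at the median of 5. Shmt2 over Shmt1 and Mthfd2 over Mthfd2l lie above the CTRL maximum in 4 of 5 D30 tumors, and the other 2 ratios do so in T4 and T5.

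All 4 methionine cycle and salvage members had negative fold changes and none passed the test (0 also at an unadjusted p under 0.05 and by edgeR or DESeq2), with a median log2 fold change of -0.31. Ahcy, which clears S-adenosylhomocysteine, had 5899.7, 5251, 4661, 5163 and 4949.8 normalized counts in CTRL and 4949.7, 3526, 5176, 3233 and 4417 in D30. Its groups overlapped, and the log2 fold change was -0.30 (SE 0.18, adjusted p = 0.417). Mtr, the methionine synthase that takes its methyl group from folate, had 1011, 852, 780.3, 878 and 864 in CTRL and 942, 829.3, 487, 442 and 818 in D30. T4 and T5 were the lowest, and the log2 fold change of -0.38 (SE 0.24, adjusted p = 0.446) was -0.02 without them. Mat2a, which makes S-adenosylmethionine, gave -0.31 (adjusted p = 0.683), with its lowest value, 3621 normalized counts, in T5. Its log2 fold change was 0.04 without T5 and -0.47 without T4. Mtap, which salvages methylthioadenosine, gave -0.31 (adjusted p = 0.579), with its highest value, 6227, in N1. Its log2 fold change was -0.15 without T5 and -0.50 without T4.

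Of the 8 enzymes of asparagine, proline, arginine and branched-chain amino acids, 7 had positive fold changes and 1 a negative one, with a median of 0.35, but Asns alone passed the test. Pycr1, which takes the last step of proline synthesis, had 396, 477, 428, 506 and 458 normalized counts in CTRL and 527, 646, 473, 897 and 682 in D30. T4 fell within the CTRL range and the other 4 D30 tumors lay above it (log2 fold change 0.48, SE 0.21, adjusted p = 0.262). Aldh18a1, the enzyme before it, gave 0.22 (adjusted p = 0.667) with all tumors, T4 being the lowest at 1999.8, and 0.45 without T4 and T5 (adjusted p = 0.0498).

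Ass1 and Asl, which make arginine from citrulline, had log2 fold changes of 0.43 and 0.10 (adjusted p = 0.6 and 0.849). Without T5 these were 0.21 and 0.02, and without T4 the Asl value was 0.24. Arg2, the mitochondrial arginase, ranged from 4.43 to 13.7 normalized counts in CTRL and 3.08 to 179.7 in D30. Its highest values were in T4 and T5, and its locus overlaps Vti1b on the opposite strand. Limma gave a log2 fold change of 1.20 (adjusted p = 0.52), DESeq2 called it (2.58, adjusted p = 0.0355), and without T4 and T5 the limma value was -0.23. T5 also had the largest sum of neutrophil markers, 18146 against 1059 to 4230 in CTRL. T2 had the next largest sum, 7977, with 13.7 normalized counts of Arg2, and T4 had 4480 with 41.6. The part of neutrophils in the Arg2 values was not tested.

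Bcat1, the cytosolic branched-chain aminotransferase, ranged from 159 to 291 in CTRL and was 119, 60.7, 50.9, 485 and 117 in D30. T5 was the highest of all tumors and the other 4 D30 tumors were below every CTRL tumor. The log2 fold change was -1.01 (adjusted p = 0.328) with all tumors. It was -1.52 without T5 (adjusted p = 0.0244) and -0.71 without T4 (adjusted p = 0.389). Bcat2, its mitochondrial counterpart, gave 0.28 (adjusted p = 0.497).

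No transporter passed the test (0 also at an unadjusted p under 0.05 and by edgeR or DESeq2), and the median log2 fold change of the 7 tested was 0.01. Slc7a1, a carrier of arginine and lysine, had 2892, 3698, 4124, 4217 and 3905 normalized counts in CTRL and 6371, 5325, 3038, 5445 and 4783 in D30. T4 lay within the CTRL range and the other 4 D30 tumors above it. The log2 fold change was 0.38 (SE 0.21, adjusted p = 0.393), and 0.55 without T4 (adjusted p = 0.0507). Slc3a2, the heavy chain that partners Slc7a5 and Slc7a7, had 4406, 5768, 6341, 5586 and 5362 in CTRL and 6699, 6479.9, 5052, 12166 and 6882 in D30. T5 was far above the rest, and the log2 fold change was 0.39 (SE 0.23, adjusted p = 0.411), and 0.19 without T5. The remaining transporters, Slc7a5, Slc7a7, Slc38a1, Slc1a4 and Slc6a9, had log2 fold changes from -0.36 to 0.05 and adjusted p from 0.646 to 0.995. Without T4, the log2 fold change of Slc1a4, an alanine and serine carrier, went from -0.36 to -0.02, that of Slc38a1, a glutamine carrier, to 0.10, that of Slc6a9, a glycine carrier, to 0.38, and that of Slc7a5, a carrier of large neutral amino acids, to 0.39. Without T5, Slc1a4 was at -0.51, Slc38a1 at -0.43, Slc6a9 at -0.15 and Slc7a5 at -0.24.

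Beyond the members, 146 related genes were read from the same fit, and of the 137 tested, 3 rose and 1 fell (2.92%, beside 2.76% of all genes). No gene was called among the related genes of serine and glycine (14 tested), the folate cycle (15), asparagine, glutamate, proline and arginine (22), branched-chain breakdown (12) or further amino acid transporters (36). At an unadjusted p under 0.05 these lists held 3, 1, 7, 2 and 9 genes, beside 4258 of all 24560 genes tested. DESeq2 called 0, 0, 4, 0 and 5 genes of these lists, and edgeR 0, 0, 1, 0 and 1. In methionine, polyamine and transsulfuration metabolism, Cbs alone of 22 was called. Cbs, which condenses serine with homocysteine, had 619, 1283, 925, 883 and 758 normalized counts in CTRL and 207, 176, 126, 819.6 and 291 in D30. Apart from T5, the D30 tumors were below every CTRL tumor (log2 fold change -1.76, SE 0.42, adjusted p = 0.0425), and edgeR did not call it (adjusted p = 0.101). With 1 tumor left out, limma called Cbs without T4 or T5 (adjusted p = 0.0328 and 0.00249) and in none of the other 8 fits (0.0582 to 0.135).

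The 3 related genes that rose were Trib3, Atf5 and Nupr1, all from the 16 regulators of the amino acid response, whose median log2 fold change was 0.52. These 16 had 13 positive and 3 negative fold changes, from -0.35 to 2.08. The share called as higher was 18.75%, beside 1.40% of all tested genes. Groups did not overlap with D30 higher in 6 of the 16, beside 2.87% of all tested genes. The list was chosen with earlier results of these data known, so these shares are no test of it. Trib3, a pseudokinase induced by ATF4, had 119, 139.5, 154, 134 and 147 normalized counts in CTRL and 408, 408, 570.2, 1351 and 549.7 in D30 (log2 fold change 2.08, SE 0.31, adjusted p = 0.00431). It was called with any 1 tumor left out and by library-size scaling (adjusted p = 0.00624). Atf5, a related stress transcription factor, had 809, 1092, 1048, 1025 and 928 in CTRL and 1676, 1667, 1820.5, 2925 and 2042 in D30 (log2 fold change 1.02, adjusted p = 0.0147). Nupr1, a stress-induced nuclear protein, had 1673, 1480.5, 2303, 1338 and 1862 in CTRL and 3039, 3085, 5299.6, 8601 and 4415 in D30 (log2 fold change 1.41, adjusted p = 0.0173). In all 3 the groups did not overlap and T5 was the highest. Atf5 lost its call without N6 (adjusted p = 0.053), and Nupr1 without N2 or N5 (0.0627 and 0.0567). Without both N2 and N6, limma called 0 of the related genes, Trib3 included, in a fit that called 66 genes of all tested. In that fit 21 related genes had an unadjusted p under 0.05, and the count over all genes at that level was not taken. Atf4 itself, named after its values were seen, had 6186, 5290.0, 7011, 4745 and 5075 in CTRL and 7212, 7589, 10049, 18944 and 9280.2 in D30, without overlap, and did not pass the test (log2 fold change 0.83, SE 0.25, adjusted p = 0.109).

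**Figure D5:**
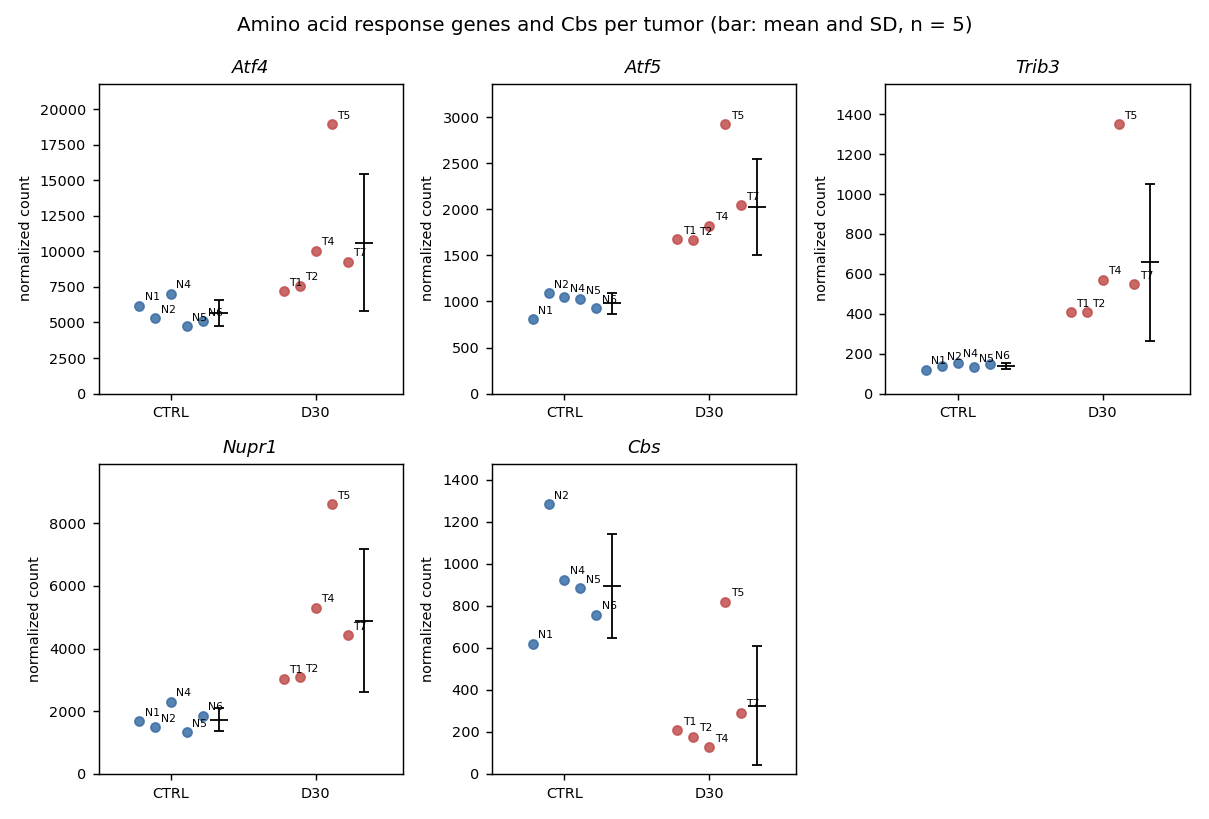
Normalized counts (y axis) of Atf4, Atf5, Trib3, Nupr1 and Cbs by group (x axis), with points labelled by tumor column and bars for the mean and SD of 5 tumors. D30 points of the first 4 genes lie above all CTRL points with T5 highest, and for Cbs T5 is the D30 tumor within the CTRL range.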

How the data were processed

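RNA from 10 tumors (5 CTRL, 5 D30) was sequenced in strand-specific, 150-base paired-end libraries. The authors trimmed the reads, aligned them with STAR 2.7.0e and used DESeq2. The build is GRCm39 by the submitters' processing notes and hg38 by the methods, while the table lists mouse Ensembl identifiers. They deposited 1 normalized signal per gene and tumor, a count divided by a size factor. All values were whole multiples of 1 step per column, and the reads were recovered within a tolerance of 0.1 of a whole number. Symbols came from GENCODE M21 and a gene name table (94.1% of identifiers). Columns could not be matched to the replicate numbers of the labels.

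Genes with a mean of at least 1 entered limma 3.58.1 (R 4.3.3) after adding 1 and taking log2, with a mean-variance trend, and were called at a Benjamini-Hochberg adjusted p under 0.05. Fold changes are on this scale and understate those of low genes. For marker sums, an exact permutation test (two-sided, 5 against 5 tumors) was used, which can reach 0.00794 at the lowest. Alternatives were edgeR 4.0.16 and DESeq2 1.42.0 on recovered reads, library-size and TMM scaling, pseudocounts of 0.5 and 5, a minimum mean of 10 or none, leaving out each tumor, and leaving out T4 and T5. Leaving out N2 and N6, and leaving out the most abundant gene of the endothelial and hepatocyte marker sums, were added after the data were seen. The script was tested on simulated data.

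Members and lists were chosen with earlier results of these data known. All members are accounted for, and values in every tumor are given for those called, those without overlap and the 2 with the smallest p in each role, and for others where a single tumor decides the value, chosen after seeing it. Of the related lists, called genes are named, at most 3 per list.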

Additional observations from a re-analysis of the deposited data

Results flagged for a closer look

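In 10 of the 64 sets of 5 tumors (32 members in each group), the highest or lowest tumor lay farther from its neighbors than Dixon's 95% critical value of 0.71 of the range. Chance alone gives about 1 in 20 such sets when the sets are independent and normally distributed. The sets here are unlogged counts from the same 10 tumors, so that rate cannot show an excess among them.

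T4 was set apart in 3 members. It had 523.9 normalized counts of Gldc against 72.2 to 165 in the other D30 tumors, 2631.3 of Mthfd2l against 601 to 758, and 1999.8 of Aldh18a1 against 4003 to 4332.

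T5 was set apart in 5 members. It had 4188.5 normalized counts of Mthfd1l against 1512 to 1892 in the other D30 tumors, 757.8 of Aldh1l2 against 53.2 to 119, 179.7 of Arg2 against 3.08 to 41.6, 485.4 of Bcat1 against 50.9 to 119, and 12165.9 of Slc3a2 against 5052 to 6882.

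The remaining 2 were N1 for Mtap in CTRL, at 6226.9 normalized counts against 3700 to 3888, and T1 for Slc7a7 in D30, at 1268.8 against 907 to 993.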

How the results depend on the processing

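The number of members called was 2 in the reported fit, 0 with library-size scaling, 8 without T4 and T5, 0 without N2 and N6, and 0 to 4 with 1 tumor left out. Related genes called went from 4 to 17 with DESeq2, 19 without T4 and T5, 0 without N2 and N6, and 2 to 10 with 1 tumor left out. Of all genes, 678 were called in the reported fit, 1833 with DESeq2, 2418 without T4 and T5, 66 without N2 and N6, and 279 (without N2) to 1573 (without T4) with 1 tumor left out. Library-size scaling called 240 genes as higher and 624 as lower, against 344 and 334 in the reported fit. Without N2 and N6, 5 members and 21 related genes had an unadjusted p under 0.05 in limma, and the count over all genes at that level was not taken. Leaving out tumors lowers their number, and the cause of the changes was not tested otherwise.

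The median log2 fold change of the members was -0.14 with library-size scaling and 0.0245 to 0.335 with 1 tumor left out. The log2 fold change changed sign with library-size scaling for Phgdh (-0.14), Aldh1l1 (-0.0774), Aldh18a1 (-0.0077), Asl (-0.13), Slc7a5 (-0.22) and Slc7a7 (-0.17), and with TMM for Slc7a5 (-0.0046). With edgeR it changed sign for Gldc (0.11), Mthfd1 (0.046) and Slc6a9 (0.0468), and with DESeq2 for Gldc (0.10), Mthfd1 (0.0361) and Slc6a9 (0.0337). Without T4 and T5 this held for Phgdh (-0.12), Mthfd1 (0.54), Ass1 (-0.0266), Arg2 (-0.23) and Slc6a9 (0.43), and without N2 and N6 for Slc6a9 (0.0395).

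With 1 tumor left out, log2 fold changes ran from -0.0659 to 0.21 for Phgdh, -0.61 to 0.10 for Gldc, -0.59 to 0.14 for Mthfd1, -0.14 to 0.89 for Aldh1l1, -0.24 to 0.39 for Slc7a5, -0.0317 to 0.10 for Slc7a7, -0.36 to 0.38 for Slc6a9, -0.47 to 0.0415 for Mat2a and -0.43 to 0.10 for Slc38a1. Ratios of summed markers ran from 0.859 to 1.09 for T cells, 0.72 to 1.01 for adipocytes and 0.852 to 1.04 for proliferation. The endothelial and hepatocyte sums lost their call without any 1 of the 5 D30 tumors (adjusted p 0.0635 to 0.0952 in both), with ratios of 0.523 to 0.571 and 0.294 to 0.37. The epithelial sum passed with TMM and the islet sum without N5 (adjusted p = 0.0317 in both). Of 640 member fold changes recomputed, 577 kept their sign and side of the threshold, 10 passed it, 17 lost it and 36 changed sign. All 17 losses were those of Asns or Mthfd2, the only members with a call to lose. Arg2, with as few as 3.08 normalized counts, rested on few reads in several tumors.

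No paired analysis was possible because the columns carry numbers that could not be matched to the replicate numbers of the labels. A match would not in itself give pairs, since the methods state that mice were randomized to treatment. The labels call the tumors of a group independent biological replicates.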
